A study of Saccharomyces cerevisiae S288C with 72 samples.

Results

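RNA abundance in a budding yeast strain lacking COX4, a nuclear gene for a subunit of cytochrome c oxidase, was compared with wild type at matched points of the culture's course rather than at matched clock times. Each strain was represented by its first 4 sampled time points after the message of the hexose transporter HXT3 had collapsed. These were 14, 15, 16 and 18 h for the cox4Δ strain and 16, 18, 20 and 22 h for wild type, which made 8 of the 72 libraries of the series. Both strains are of the S288C background, and they grew in the same YNB medium with ammonium and 2% glucose at 30 °C in baffled flasks. The other mutant of the series, nde1Δ nde2Δ ndi1Δ, lacks the NADH dehydrogenases that feed electrons into the respiratory chain and is called ndh below. Its libraries at 13, 14, 15 and 16 h, chosen in the same way, served as a further comparison. The labels give 1 library per strain and time and state neither a replicate culture nor a further clone of either mutant, so the time points of a window stood in for replicates. All p-values therefore speak of variation among hours within the course of each strain, not among replicate cultures.

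Yeast supplied with glucose ferments it to ethanol, and represses the genes for respiration and for the use of other carbon sources. When glucose runs out, wild-type cells switch to oxidizing the ethanol, which needs the respiratory chain, the tricarboxylic acid (TCA) cycle, the glyoxylate cycle and gluconeogenesis. HXT3 encodes a low-affinity glucose transporter that is made while glucose is plentiful, so its loss marks the end of the glucose phase. Cytochrome c oxidase is the terminal complex of the respiratory chain, and cells without COX4 cannot respire.

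The libraries were chosen by the measured level of HXT3 alone, and its levels are given as a description with no test. HXT3 had 62.3, 70.5, 94.6 and 111 TPM in the cox4Δ strain and 78.6, 57.9, 60.9 and 55.8 TPM in wild type (TPM is the authors' abundance unit, a length-corrected share of all transcripts). The last library before each window held 499 TPM in the cox4Δ strain at 13 h and 834 TPM in wild type at 15 h. The deletion was visible in the RNA: COX4 (YGL187C, chromosome VII, 149704 to 150171) had 0.76, 1.13, 0.6 and 2.52 TPM in the cox4Δ strain and 1453, 1554, 1301 and 1162 TPM in wild type. The libraries of each strain lie in plate rows of their own, per the labels. Those of the cox4Δ window are all in row F and those of the wild-type window all in row B, so that strain and row cannot be told apart. Sequencing depth is unknown, because TPM keeps no record of read numbers. Across all genes, Spearman's rho lay between 0.959 and 0.987 among the 4 cox4Δ libraries, between 0.965 and 0.984 among the 4 wild-type libraries, and between 0.915 and 0.944 across the strains, as a description.

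**Figure D1:**
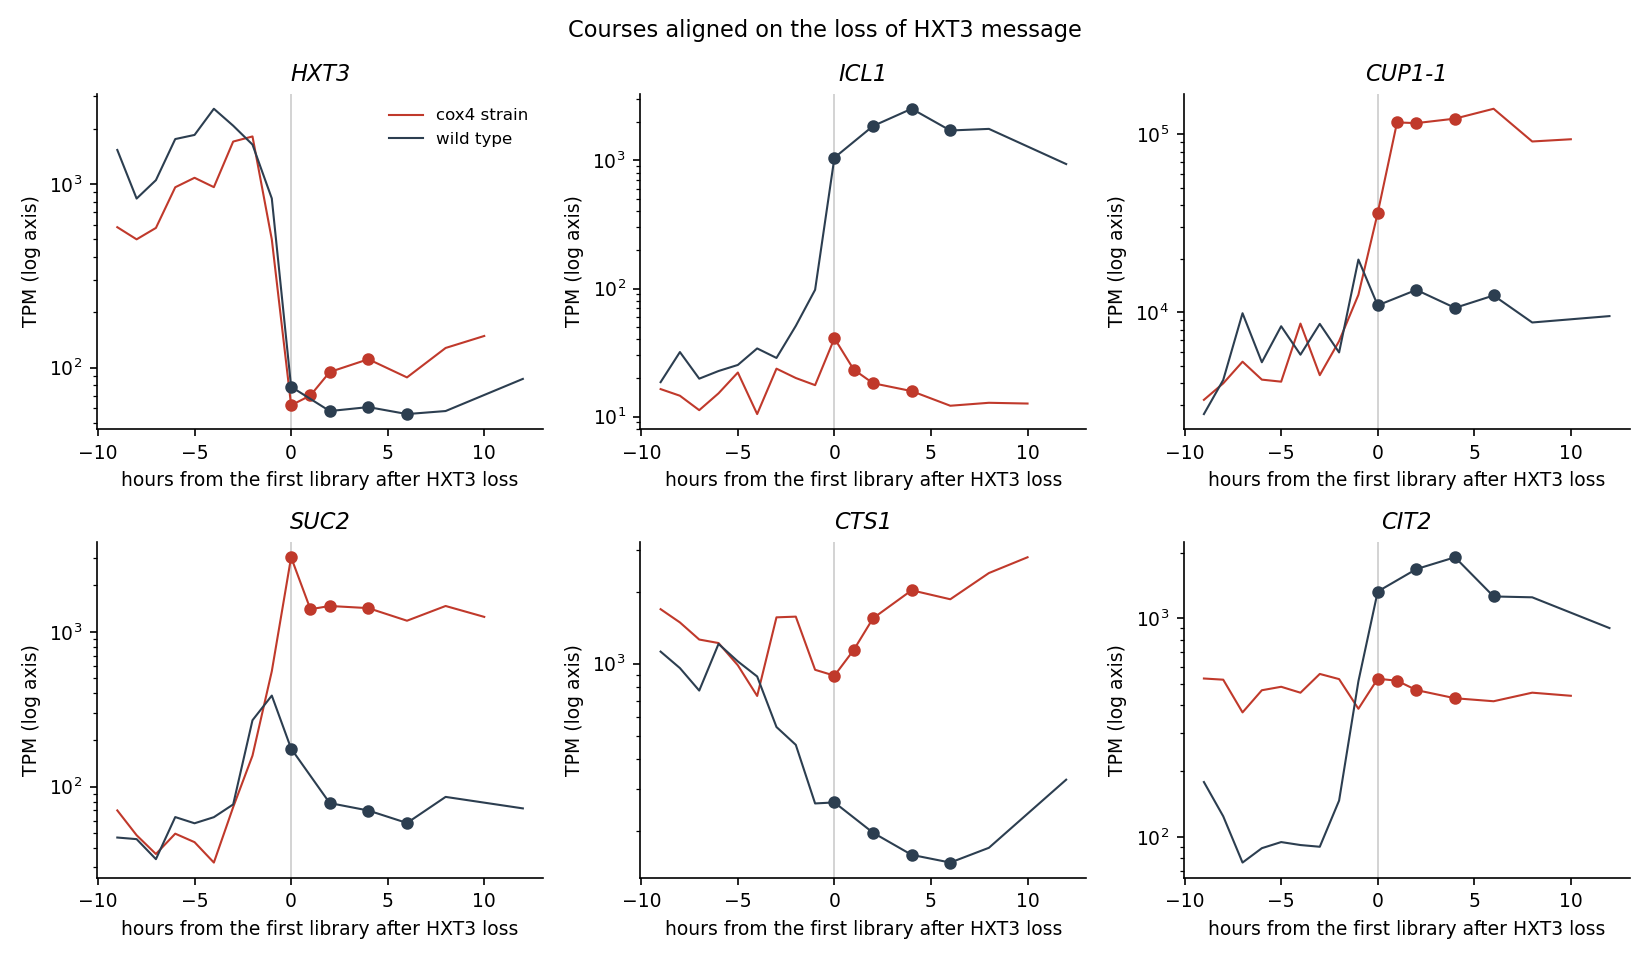
TPM on log axes against hours from the first library after HXT3 loss, for the cox4Δ strain in red and wild type in dark blue. Filled points mark the 4 libraries of each window. Each line joins the libraries of 1 strain, with 1 library per time. ICL1 and CIT2 are higher in wild type after the loss, and CUP1-1, SUC2 and CTS1 are higher in the cox4Δ strain.

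The cox4Δ strain carried far less message than wild type for the enzymes of the glyoxylate cycle and gluconeogenesis. It carried more for a small set led by some sugar transporters, invertase, a metallothionein and the enzymes that part daughter cells from their mothers. Of 5686 genes tested with limma, 83 were higher in the cox4Δ strain (1.46%) and 1842 were lower (32.4%), by at least 2-fold at an adjusted p under 0.05. The median gene differed by -0.71 on the log2 scale, on which every fold change below is given as log2(TPM + 1), cox4Δ minus wild type, with the standard error of the fit (SE). TPM are shares of a fixed total, and in the cox4Δ libraries that total was held by fewer genes. The 20 most abundant genes took 38.9 to 46.7% of all TPM in the cox4Δ strain and 25 to 29.8% in wild type. CUP1-1 alone made up 31.1% of the TPM gained over the 795 genes with a higher mean in the cox4Δ strain, and CUP1-1, SPI1, FIT3, HXT6 and HOR7 together 48.6%. When each library was instead scaled by the median of its gene ratios, the median gene differed by -0.01, 409 genes were higher (7.2%) and 310 lower (5.46%) of 5681. All 83 genes that were higher on the TPM scale and all 310 that were lower after median-of-ratios scaling were called under both. The shift was spread over the genome, with medians of the 16 nuclear chromosomes between -0.86 and -0.65. Counts of genes called after HXT3 loss are therefore given in both scalings for the gene lists. Each count is to be read against the shares of all genes given here.

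**Figure D2:**
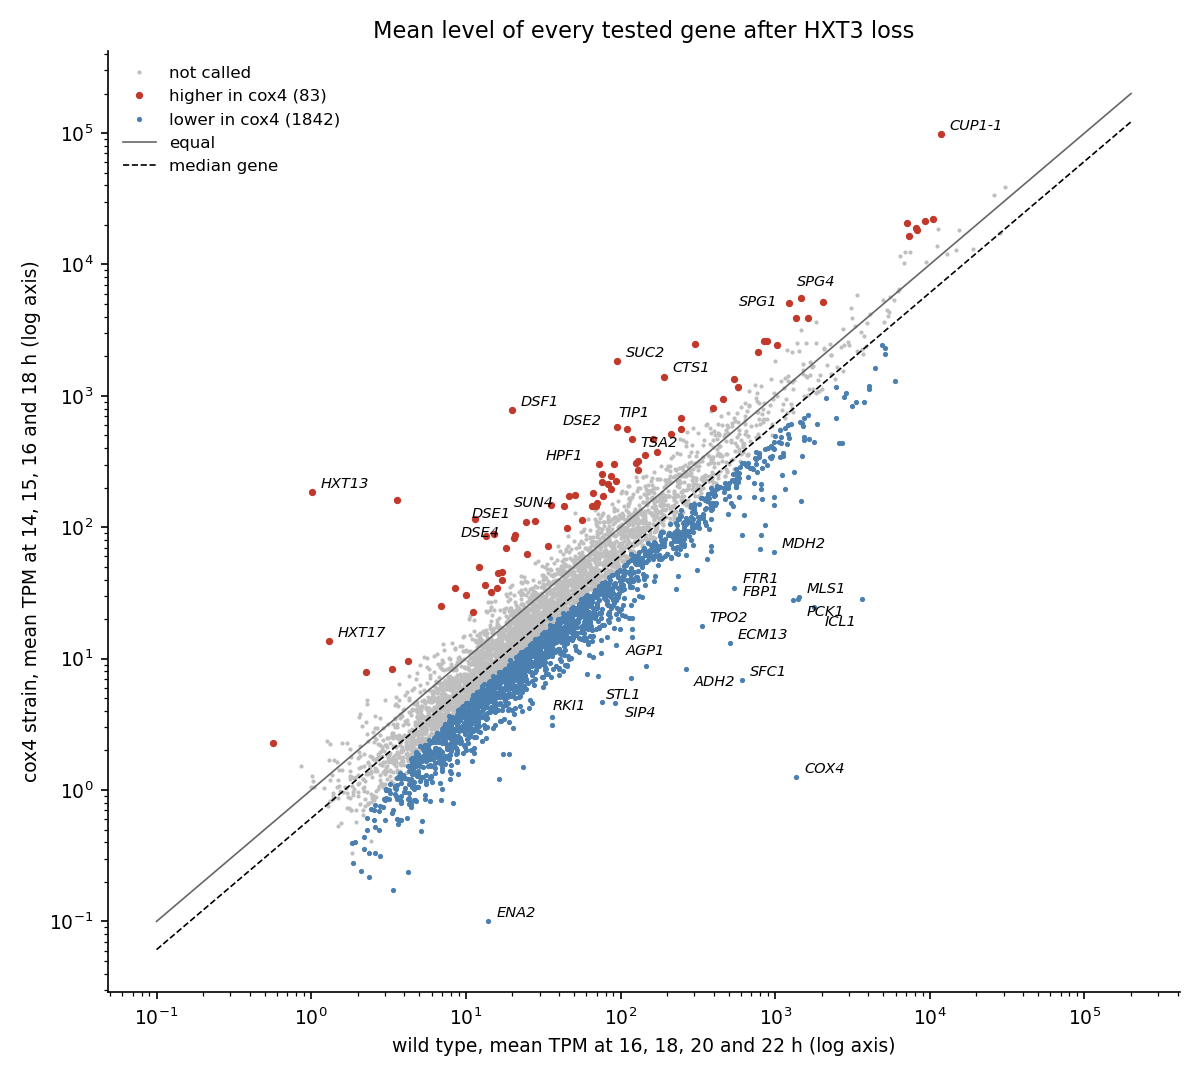
Mean TPM over the 4 cox4Δ libraries (y axis) against the mean over the 4 wild-type libraries (x axis) for each of the 5686 tested genes, both axes logarithmic. The 83 genes called higher in the cox4Δ strain are red, the 1842 called lower are blue, and the dashed line lies at the median difference of -0.71. CUP1-1 stands apart at the top and the glyoxylate and gluconeogenesis genes stand below the cloud.

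The lowest group was the glyoxylate cycle with gluconeogenesis, the route by which cells build sugar from acetate. Of its 10 listed enzymes, 9 were lower in the cox4Δ strain and none higher on the TPM scale, with a median of -3.74; after median-of-ratios scaling 7 were lower and 1 higher, with a median of -2.96. Their summed abundance was 1155 to 1684 TPM in the cox4Δ strain and 7049 to 12682 TPM in wild type. Many promoters of this route carry the carbon source-responsive element, the site of the activators Cat8 and Sip4. The pattern CCNNTNNNCCG, a general form of that element, was searched on both strands of the 500 bases before the start codon. It occurred before 424 of 5765 nuclear coding genes (7.35%) and before 7 of these 10, which were ICL1, MLS1, MDH2, PCK1, IDP2, ACS1 and PYC1. It occurred before 9 of the 15 lowest genes named by rule, before 3 of the 15 highest, which were CUP1-1, TIP1 and SPG1, and before 2 of 16 TCA cycle genes. Motif and genes were chosen with the results known, so the counts are a description, and a match in the letters is not a shown binding site. The matches nearest to the start codon are printed 5′ to 3′ on the strand of the gene, with the match in capitals and up to 20 bases on each side, to show the letters at the matches of 9 lowered genes of carbon use. They come from the RefSeq assembly R64, the build sacCer3.
SFC1: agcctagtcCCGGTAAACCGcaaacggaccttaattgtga
ICL1: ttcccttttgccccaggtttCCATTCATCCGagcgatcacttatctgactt
MLS1: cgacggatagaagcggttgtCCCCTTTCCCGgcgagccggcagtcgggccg
PCK1: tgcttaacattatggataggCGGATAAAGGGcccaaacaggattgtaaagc
MDH2: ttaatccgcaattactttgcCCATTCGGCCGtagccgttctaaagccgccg
SIP4: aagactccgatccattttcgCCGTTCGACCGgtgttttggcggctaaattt
ADH2: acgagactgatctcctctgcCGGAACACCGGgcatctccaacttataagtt
IDP2: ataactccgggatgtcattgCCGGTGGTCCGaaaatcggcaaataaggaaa
ACS1: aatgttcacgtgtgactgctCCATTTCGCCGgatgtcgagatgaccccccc
In the listed order these stretches lie at chrX:609273-609312 (plus strand, SFC1), chrV:287282-287332 (minus strand, ICL1), chrXIV:405880-405930 (plus strand, MLS1), chrXI:630770-630820 (plus strand, PCK1), chrXV:83267-83317 (minus strand, MDH2), chrX:265631-265681 (plus strand, SIP4), chrXIII:874613-874663 (minus strand, ADH2), chrXII:504268-504318 (plus strand, IDP2) and chrI:45363-45413 (minus strand, ACS1). No match was found in that window before FBP1 or JEN1.

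Isocitrate lyase and malate synthase, the enzymes specific to the glyoxylate cycle, stayed low in the cox4Δ libraries while they were abundant in wild type. ICL1, isocitrate lyase, had 40.9, 23.3, 18.2 and 15.8 TPM in the cox4Δ strain and 1051, 1857, 2532 and 1713 TPM in wild type (log2 difference -6.16, SE 0.30, adjusted p = 2.3e-08). MLS1, malate synthase, had 23.4, 37.0, 28.2 and 24.8 TPM in the cox4Δ strain and 1099, 1485, 1735 and 1284 TPM in wild type (log2 difference -5.58, SE 0.19, adjusted p = 6.6e-10). Every cox4Δ library lay far below every wild-type library for both genes. PCK1, phosphoenolpyruvate carboxykinase, had 22.9, 31.8, 30.6 and 32.1 TPM in the cox4Δ strain and 719, 1861, 1757 and 1327 TPM in wild type (log2 difference -5.47, SE 0.26, adjusted p = 2.1e-08). FBP1, fructose-1,6-bisphosphatase, had 27.0, 27.0, 25.4 and 32.9 TPM in the cox4Δ strain and 869, 1856, 1379.6 and 1084 TPM in wild type (log2 difference -5.43, SE 0.21, adjusted p = 2.9e-09). These are the committing steps of gluconeogenesis, and in wild type both were lowest at 16 h, the start of the window. MDH2, the cytosolic malate dehydrogenase, had 121, 52.8, 40.5 and 43.4 TPM in the cox4Δ strain and 428, 1042, 1362 and 1079.9 TPM in wild type (log2 difference -3.93, SE 0.39, adjusted p = 1e-05). IDP2, the cytosolic NADP-dependent isocitrate dehydrogenase, had 89.1, 68.5, 61.8 and 53.7 TPM in the cox4Δ strain and 683, 931, 811 and 771 TPM in wild type (log2 difference -3.55, SE 0.18, adjusted p = 3e-08). The smallest called difference of the list was in ACS1, an acetyl-CoA synthetase, at -1.13. It passed the test on the TPM scale but not after median-of-ratios scaling (-0.35). PYC1, pyruvate carboxylase, was not called on the TPM scale, at 500.0, 702, 508 and 343 TPM in the cox4Δ strain and 384, 502, 549.8 and 301 TPM in wild type. These sizes rest in part on where the wild-type window starts: with wild type at 15, 16, 18 and 20 h instead, the differences were -5.13 for ICL1, -4.34 for PCK1, -4.47 for FBP1 and -3.26 for MDH2. At the same clock hours, 16 to 22 h in both strains, ICL1 differed by -6.78, and without the first library of each window MDH2 differed by -4.64.

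Transport of the substrates went with the enzymes. SFC1, the mitochondrial carrier that exchanges succinate for fumarate and so links the glyoxylate cycle to mitochondria, had 6.49, 8.20, 5.62 and 7.08 TPM in the cox4Δ strain and 284, 803, 725 and 627 TPM in wild type (log2 difference -6.19, SE 0.28, adjusted p = 1.1e-08). It was the lowest of the 30 genes named by rule, and differed by -5.27 with wild type at 15 to 20 h. JEN1, the lactate and pyruvate permease, had 569, 462, 375 and 335 TPM in the cox4Δ strain and 3074, 3232, 2735 and 1818 TPM in wild type (log2 difference -2.63, SE 0.22, adjusted p = 2.1e-06). ADY2, an acetate transporter, was lower by -2.32, and YAT1, a carnitine acetyltransferase, by -2.37. Of 10 listed genes for carboxylate carriers and acetate use, 6 were lower and none higher (median -1.62), against 4 lower and 1 higher after median-of-ratios scaling. ADH2, the alcohol dehydrogenase that oxidizes ethanol, had 7.53, 6.03, 9.24 and 10.3 TPM in the cox4Δ strain and 123, 333, 335 and 264 TPM in wild type (log2 difference -4.76, SE 0.29, adjusted p = 2.3e-07). With wild type at 15 to 20 h the difference of ADH2 was -3.88. Other genes of ethanol and aldehyde oxidation behaved otherwise: of 10 in the list, ADH2 and ALD5 were lower and ALD3 was higher, and after median-of-ratios scaling 1 was lower and 3 were higher, with the median turning from -0.32 to 0.45.

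The regulators of these genes did not move as a block. SIP4 had 7.79, 3.34, 3.14 and 4.24 TPM in the cox4Δ strain and 51.0, 79.2, 137 and 101 TPM in wild type (log2 difference -4.03, SE 0.30, adjusted p = 1e-06). With wild type at 15 to 20 h SIP4 differed by -3.23. CAT8, which activates SIP4 and shares its binding element, had 14.2, 18.5, 17.1 and 13.1 TPM in the cox4Δ strain and 14.2, 18.8, 14.5 and 11.4 TPM in wild type (log2 difference 0.10, adjusted p = 0.65), and the windows overlapped. ADR1, the activator of ADH2, differed by 0.14 (adjusted p = 0.5). HAP4, the inducible subunit of the activator of respiratory genes, had 109, 164, 142 and 110.3 TPM in the cox4Δ strain and 306, 312, 311 and 236 TPM in wild type (log2 difference -1.16, SE 0.18, adjusted p = 0.0001), and fell short of the call after median-of-ratios scaling at -0.38. HAP3, a DNA-binding subunit of the same complex, was lower by -2.02 and ROX1, a repressor of hypoxic genes, by -2.33. Of 18 listed regulators 6 were lower and none higher (median -0.58). Of all genes tested 32.4% were lower, with a median of -0.71. After median-of-ratios scaling 3 regulators were lower, against 5.46% of all genes, and the median of the list turned to 0.17.

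In mitochondrial metabolism the TCA cycle had a lower median than the respiratory complexes, a gap that was not tested. Of 16 TCA cycle genes, 13 were lower in the cox4Δ strain and none higher (median -1.59); after median-of-ratios scaling 6 were lower (median -0.81). ACO1, aconitase, had 169.5, 71.2, 61.7 and 48.3 TPM in the cox4Δ strain and 865, 860.1, 886 and 639.8 TPM in wild type (log2 difference -3.36, SE 0.31, adjusted p = 4.1e-06). CIT1, the mitochondrial citrate synthase, had 556, 403, 395 and 389 TPM in the cox4Δ strain and 2734, 2484, 2819 and 2261 TPM in wild type (log2 difference -2.57, SE 0.17, adjusted p = 3e-07). IDH1 and IDH2, the subunits of the NAD-dependent isocitrate dehydrogenase, were lower by -3.06 and -2.84. These and MDH1 and KGD2 were the 6 genes that held under both scalings.

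Of the 8 remaining nuclear subunit genes of cytochrome c oxidase, none was called lower and 1 was higher, under both scalings. That gene was COX5B, the hypoxic isoform of a subunit whose aerobic form is COX5A. COX5B had 210.3, 229, 234 and 228 TPM in the cox4Δ strain and 103, 108, 80.6 and 84.3 TPM in wild type (log2 difference 1.26, SE 0.15, adjusted p = 2.2e-05), and the windows did not overlap. COX5A had 1135, 1676, 1767 and 1636 TPM in the cox4Δ strain and 2785, 3157, 2742 and 2380.0 TPM in wild type, a log2 difference of -0.85 that was short of 2-fold and close to 0 after median-of-ratios scaling (-0.06). CYC1, the main form of cytochrome c, had 241, 197, 217 and 204 TPM in the cox4Δ strain and 849, 864, 788 and 739 TPM in wild type (log2 difference -1.91, SE 0.14, adjusted p = 1.1e-06). Among 11 genes of the bc1 complex and cytochrome c 4 were lower, where 32.4% of all genes tested were lower. Of these 4 only CYC1 was lower after median-of-ratios scaling. There 1 gene of the list was higher, and the list's median turned from -0.37 to 0.41. Among 17 ATP synthase genes 10 were lower (median -1.04) and none higher, with 1 lower and 1 higher after median-of-ratios scaling (median -0.26). Of 11 listed genes of NADH dehydrogenases and cytosolic NADH shuttles, 4 were lower and 1 higher (median -0.77). After median-of-ratios scaling 2 were lower and 3 higher (median -0.01). The external NADH dehydrogenase gene NDE2 had 98.1 to 212 TPM in the cox4Δ strain and 112 to 165 TPM in wild type. On the TPM scale the other external one, NDE1, was lower by -2.58 and the internal one, NDI1, by -1.29. CYB2, the cytochrome c-coupled lactate dehydrogenase for L-lactate, ran the other way, with 630.0, 466, 422 and 351 TPM in the cox4Δ strain and 184, 194, 162 and 109 TPM in wild type (log2 difference 1.52, SE 0.22, adjusted p = 6.7e-05). None of the 5 mitochondrially encoded genes tested was called and their summed level was 4.52 to 17.5 TPM in the cox4Δ strain and 3.16 to 16.2 TPM in wild type.

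Cells with damaged mitochondria switch on the retrograde pathway, whose best known target is CIT2, a peroxisomal citrate synthase that supplies the glyoxylate cycle. CIT2 is also one of the 10 enzymes counted above. The relation between the strains turned round across HXT3 loss. Before it, CIT2 had 487, 457, 557 and 528 TPM in the cox4Δ strain at 9 to 12 h and 94.7, 91.8, 90.2 and 147 TPM in wild type at 11 to 14 h, so it was higher in the mutant by 2.28 (adjusted p = 0.00014). After it, CIT2 had 529.9, 519, 470.1 and 431 TPM in the cox4Δ strain and 1329, 1683, 1906 and 1261 TPM in wild type, so it was lower in the mutant by -1.65 (adjusted p = 9.2e-06). The change between these differences was -3.92 (SE 0.26, adjusted p = 3.8e-08, limma over 16 libraries). The level in the cox4Δ strain was similar in both windows, and it was wild type that differed between them. DLD3, a cytosolic 2-hydroxyglutarate transhydrogenase and another retrograde target, had 676, 601, 646 and 505 TPM before the loss in the cox4Δ strain and 86.6, 87.5, 77.4 and 84.7 TPM in wild type (log2 difference 2.83, adjusted p = 2.5e-06). After the loss it had 195, 108, 102 and 115 TPM in the cox4Δ strain and 211, 174, 183 and 137 TPM in wild type, a difference that did not pass the test (-0.47, adjusted p = 0.066). Here the cox4Δ strain had less message after the loss than before it, and wild type had more. Of 11 retrograde targets and regulators 3 were higher and none lower before the loss (1.89% of all 5715 genes tested there were higher and 3.17% lower). After it 5 were lower and none higher, or 4 lower and 1 higher after median-of-ratios scaling. The 3 lowest of this list after the loss were ACO1, IDH1 and IDH2, which are also counted among the TCA cycle genes above.

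The list with the highest median held genes that separate daughter from mother cells, which are switched on as cells leave mitosis. Of 18 listed genes 11 were higher and 1 lower (median 1.27), and after median-of-ratios scaling 14 were higher and none lower (median 2.03). Their summed abundance was 2616 to 4580 TPM in the cox4Δ strain and 761 to 1082 TPM in wild type. The activator Swi5, which acts at the end of mitosis, binds the letters ACCAGC. That run, on either strand, occurred in the 500 bases before 767 of 5765 start codons (13.3%) and before 10 of these 18, among them DSE1, DSE2 and EGT2, and not before CTS1, DSE4, SUN4 or SCW11. Of the genes named by rule, 2 of the 15 highest had it (13.3%), the share of all genes. So had 3 of the 15 lowest (20%), which were ECM13, FTR1 and RKI1. The match nearest to the start codon is shown in capitals, on the gene's strand of R64, where the reverse complement reads GCTGGT. DSE1 and DSE2 are among the 15 highest genes named by rule, and EGT2 is not.
DSE1: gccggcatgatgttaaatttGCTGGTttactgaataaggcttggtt
DSE2: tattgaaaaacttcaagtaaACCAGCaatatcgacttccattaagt
EGT2: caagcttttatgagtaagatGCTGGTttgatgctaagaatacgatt
These stretches lie at chrV:409291-409336 (minus strand, DSE1), chrVIII:385228-385273 (plus strand, DSE2) and chrXIV:23831-23876 (plus strand, EGT2).

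CTS1, the chitinase that digests the septum between cells, had 891, 1141, 1548 and 2027 TPM in the cox4Δ strain and 263, 196, 159 and 147 TPM in wild type (log2 difference 2.84, SE 0.25, adjusted p = 3.5e-06). Its level climbed through the window in the mutant and dropped in wild type. DSE2, a wall-degrading enzyme secreted by daughters, had 471, 446, 591 and 804 TPM in the cox4Δ strain and 132, 92.9, 79.4 and 76.0 TPM in wild type (log2 difference 2.59, SE 0.22, adjusted p = 2.7e-06). DSE1, a daughter-specific protein, had 88.6, 95.8, 120.0 and 136 TPM in the cox4Δ strain and 29.0, 23.7, 21.9 and 23 TPM in wild type (log2 difference 2.12, SE 0.18, adjusted p = 2.6e-06). DSE4, an endoglucanase, had 70.4, 78.3, 92.4 and 111 TPM in the cox4Δ strain and 29.1, 22.1, 17.6 and 14.7 TPM in wild type (log2 difference 2.05, SE 0.22, adjusted p = 1e-05). The glucanase-family gene SUN4 had 85.9, 79.7, 115 and 163 TPM in the cox4Δ strain and 35.4, 27.1, 26.0 and 23 TPM in wild type (log2 difference 1.92, SE 0.23, adjusted p = 1.9e-05). For all 5 genes, the lowest cox4Δ library exceeded the highest wild-type library. These differences need not be rises over time in the cox4Δ strain. At 12 h, before the loss, it had 1573 TPM of CTS1, 1134 of DSE2, 123 of DSE1, 115 of DSE4 and 248 of SUN4. Wild type at 12 h had 884, 560, 80.6, 83.9 and 122 TPM, in the same order. In the list of cyclins and replication genes, 14 of 26 were lower and none higher (median -1.10), and 3 were lower after median-of-ratios scaling.

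Invertase and part of the hexose carrier family were higher. SUC2 encodes invertase, the secreted enzyme that splits sucrose and is repressed by glucose. SUC2 had 3041, 1403, 1472 and 1426 TPM in the cox4Δ strain and 176, 78.2, 70.0 and 58.1 TPM in wild type (log2 difference 4.31, SE 0.33, adjusted p = 2e-06). The library at 14 h stood above the other cox4Δ libraries, which were all still above every wild-type library. With wild type at 15 to 20 h the difference was 3.63. Of 17 hexose transporter and invertase genes 5 were higher and 3 lower (median 0.12), and 7 were higher and none lower after median-of-ratios scaling (median 0.75). The 3 lowest of this list were HXT4, RGT2 and HXT5. HXT5 had 4481, 2395, 1692 and 1114 TPM in the cox4Δ strain and 4294, 5203, 5902 and 4226 TPM in wild type. Its windows overlapped. HXT2, a glucose transporter induced at low glucose, had 14.6, 24.4, 30.5 and 31.3 TPM in the cox4Δ strain and 7.60, 6.33, 5.80 and 7.80 TPM in wild type (log2 difference 1.69, SE 0.23, adjusted p = 4.5e-05). HXT6 and HXT7 encode nearly identical high-affinity transporters, so their shares of reads are uncertain. HXT6 had 31817, 26474, 18834 and 12382 TPM in the cox4Δ strain and 23706, 8775, 5841 and 3527 TPM in wild type, and the windows overlapped (log2 difference 1.38, adjusted p = 0.029). HXT7 did not pass the test (1.73, adjusted p = 0.056).

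The highest fold changes came from a pair of subtelomeric loci that pair a hexitol-related transporter with a mannitol dehydrogenase homolog. HXT13, a member of the hexose transporter family, had 523, 93.6, 71.3 and 53.6 TPM in the cox4Δ strain and 1.52, 0.49, 1.84 and 0.21 TPM in wild type (log2 difference 5.96, SE 0.61, adjusted p = 2e-05). Its neighbour DSF1, the mannitol dehydrogenase homolog, had 2021, 375, 380.1 and 353 TPM in the cox4Δ strain and 32.2, 19.1, 15.9 and 12.7 TPM in wild type (log2 difference 4.84, SE 0.52, adjusted p = 2.6e-05). Both genes were highest at 14 h and then settled at levels still above every wild-type library. Without the 14 h library the differences were 5.25 for HXT13 and 4.23 for DSF1, and at the same clock hours 4.84 and 4.21. They lie side by side on chromosome V between 19589 and 23231, 19.6 and 21.5 kb from its end. The second locus, on chromosome XIV between 770440 and 776300, holds near-identical relatives. There HXT17 had 29.7, 9.02, 7.27 and 8.16 TPM in the cox4Δ strain and 0.51, 1.28, 1.98 and 1.48 TPM in wild type (log2 difference 2.46, SE 0.37, adjusted p = 0.00011). Without the first library of each window the difference of HXT17 was 1.83. Beside it YNR073C, the relative of DSF1, had 298, 122, 123 and 106 TPM in the cox4Δ strain and 5.49, 2.02, 2.88 and 4.04 TPM in wild type (5.07, adjusted p = 2.5e-07), and YNR071C had 166, 107, 96.0 and 92.2 TPM in the cox4Δ strain and 12.3, 11.4, 9.81 and 12.4 TPM in wild type (3.19, adjusted p = 2.5e-07). Because the copies at these loci share sequence, how reads were divided between them is uncertain. Flanking genes were not raised with them: DLD3 (-0.47) and YEL068C (-0.77) border the first locus, and PDR18 (0.01) and AIF1 (-0.24) the second. These neighbours and both YNR genes were picked after their values were seen.

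CUP1-1, the copper-binding metallothionein (YHR053C, chromosome VIII, 212535 to 212720), was, by its mean, the most abundant message of the cox4Δ libraries. It had 36174, 116621, 115589 and 122484 TPM in the cox4Δ strain and 10939.5, 13366, 10589 and 12434 TPM in wild type (log2 difference 2.90, SE 0.33, adjusted p = 1.5e-05). The cox4Δ library at 14 h held less than the 3 later ones, and even so all 4 lay above wild type. CUP1 is a tandem repeat in this background, and only the entry CUP1-1 is used here, so it stands for the repeat and not for a single copy. CRS5, a second metallothionein, had 1178, 2796, 2904 and 2901 TPM in the cox4Δ strain and 569, 1044, 1036 and 1449 TPM in wild type (log2 difference 1.24, SE 0.32, adjusted p = 0.0041), with overlapping windows. Removing CUP1-1 from the totals left 105 genes higher and 1475 lower, an alternative chosen after seeing the data.

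Stationary-phase and wall genes included some of the largest differences above wild type. Such a difference need not be a rise over time: in the cox4Δ strain HPF1 had 459 TPM at 12 h and TIP1 1089 TPM at 13 h. SPG1 and SPG4 are needed for survival at high temperature in stationary phase. SPG1 had 3020.3, 5602, 5706 and 5872 TPM in the cox4Δ strain and 879, 1538, 1251 and 1229.7 TPM in wild type (log2 difference 2.02, SE 0.24, adjusted p = 1.8e-05), and SPG4 had 3065, 6481, 6452 and 6054 TPM in the cox4Δ strain and 879.9, 2001, 1470.5 and 1515 TPM in wild type (log2 difference 1.91, SE 0.28, adjusted p = 8.3e-05). In each strain the first library of the window was the lowest for both genes. TSA2, a stress-induced peroxiredoxin, had 515, 460.4, 487 and 426 TPM in the cox4Δ strain and 163, 131, 94.0 and 87.2 TPM in wild type (log2 difference 2.02, SE 0.20, adjusted p = 6.2e-06). Among mannoproteins of the wall, HPF1 and TIP1 were also higher. HPF1 had 311, 261, 303 and 343 TPM in the cox4Δ strain and 85.5, 74.9, 80.3 and 51.3 TPM in wild type (log2 difference 2.06, SE 0.18, adjusted p = 3.3e-06). TIP1 had 1020.4, 383, 424 and 409 TPM in the cox4Δ strain and 233, 77.4, 70.5 and 59.1 TPM in wild type (log2 difference 2.44, SE 0.43, adjusted p = 0.00043), and was highest at the start of the window in each strain. With wild type at 15 to 20 h TIP1 differed by 1.75. Their families did not move as one. Of 19 stationary phase and hydrophilin genes 4 were higher and 4 lower (median 0.31), turning to 10 higher and 1 lower after median-of-ratios scaling (median 1.10). Of 20 cell wall genes 4 were higher and 7 lower, where 1.46% of all genes were higher and 32.4% lower. PIR3, a covalently linked wall protein, was lowest at -2.13. After median-of-ratios scaling 7 cell wall genes were higher and 3 lower, with the median turning from -0.08 to 0.63. Of 38 targets of the general stress activators Msn2 and Msn4, 5 were higher and 2 lower (median 0.08), and 13 were higher and none lower after median-of-ratios scaling (median 0.86). SPI1, which contributed to the gain in TPM above, was higher by 1.49 and HSP12, a membrane-protecting small heat shock protein, by 1.16.

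Several genes of iron uptake were lower. FTR1, the high-affinity iron permease, had 48.9, 25.7, 30.0 and 34.4 TPM in the cox4Δ strain and 453, 339.8, 684 and 701 TPM in wild type (log2 difference -3.91, SE 0.25, adjusted p = 3e-07). FET3, its partner oxidase, was lower by -2.14, and ARN1, a siderophore transporter, had 207, 129.7, 127 and 127 TPM in the cox4Δ strain and 1035, 832, 1080.2 and 974 TPM in wild type (log2 difference -2.75, SE 0.18, adjusted p = 4e-07). Of 30 listed genes of the iron regulon 17 were lower and 1 higher (median -1.12), and 7 were lower and 2 higher after median-of-ratios scaling. The higher one was FIT3, a wall protein that retains siderophores, with 14727, 19096, 24127 and 27548 TPM in the cox4Δ strain and 9327, 9595, 8922 and 9422 TPM in wild type (1.16, adjusted p = 0.00028). Sterol synthesis, whose oxygenases and desaturases need heme and iron, had 14 of 26 genes lower and none higher (median -1.02), and 5 lower and 2 higher after median-of-ratios scaling. ERG3, the sterol C-5 desaturase, had 257, 112, 127 and 141 TPM in the cox4Δ strain and 1288, 1254, 1643 and 1726 TPM in wild type (log2 difference -3.27, SE 0.24, adjusted p = 7.6e-07).

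The remaining strongly lowered genes belong to different functions. AGP1, a broad-range amino acid permease, had 9.97, 8.16, 8.77 and 8.34 TPM in the cox4Δ strain and 93.0, 162, 162 and 171 TPM in wild type (log2 difference -3.88, SE 0.20, adjusted p = 4.2e-08). STL1, the glycerol symporter of the plasma membrane, had 12.0, 5.53, 5.51 and 5.22 TPM in the cox4Δ strain and 104, 127, 139.7 and 95.0 TPM in wild type (log2 difference -3.92, SE 0.24, adjusted p = 2.4e-07). TPO2, a polyamine exporter, had 13.4, 14.4, 20.1 and 22.7 TPM in the cox4Δ strain and 164, 329, 403 and 440.2 TPM in wild type (log2 difference -4.11, SE 0.28, adjusted p = 4.9e-07). For these 3 genes no cox4Δ library reached the lowest wild-type library. ECM13 had 22.8, 15.4, 9.29 and 5.15 TPM in the cox4Δ strain, falling through the window, and 356, 533, 550.4 and 592 TPM in wild type (log2 difference -5.32, SE 0.34, adjusted p = 4.9e-07). RKI1, ribose-5-phosphate ketol-isomerase of the pentose phosphate pathway, had 4.56, 6.62, 2.07 and 5.60 TPM in the cox4Δ strain and 48.1, 95.3, 70.2 and 91.1 TPM in wild type (log2 difference -3.79, SE 0.29, adjusted p = 1.1e-06). ENA2, one of several near-identical sodium pumps in a tandem array, was listed at the file's lowest value of 0.1 TPM in all 4 cox4Δ libraries and had 17.8, 13.2, 17.5 and 7.44 TPM in wild type, so no fold is given.

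Genes of growth were lower on the TPM scale in large numbers. Of 76 cytosolic ribosomal protein genes 62 were lower and none higher (median -1.32), and 2 after median-of-ratios scaling (median -0.55). Of 64 ribosome biogenesis genes 47 were lower (median -1.38), of which the count after median-of-ratios scaling was 16 (median -0.74). RNA polymerase I and III subunits had 18 of 20 genes lower (median -1.40), and 3 after median-of-ratios scaling. Amino acid synthesis had 36 of 48 lower (median -1.30) and 12 after median-of-ratios scaling, and sulfate assimilation 18 of 25 (median -1.20) and 3. No gene of these 5 lists was higher under either scaling. Their medians lay below that of all genes in both scalings. Of 33 proteasome genes, by contrast, 1 was lower and none higher (median -0.15), and 5 were higher after median-of-ratios scaling.

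**Figure D3:**
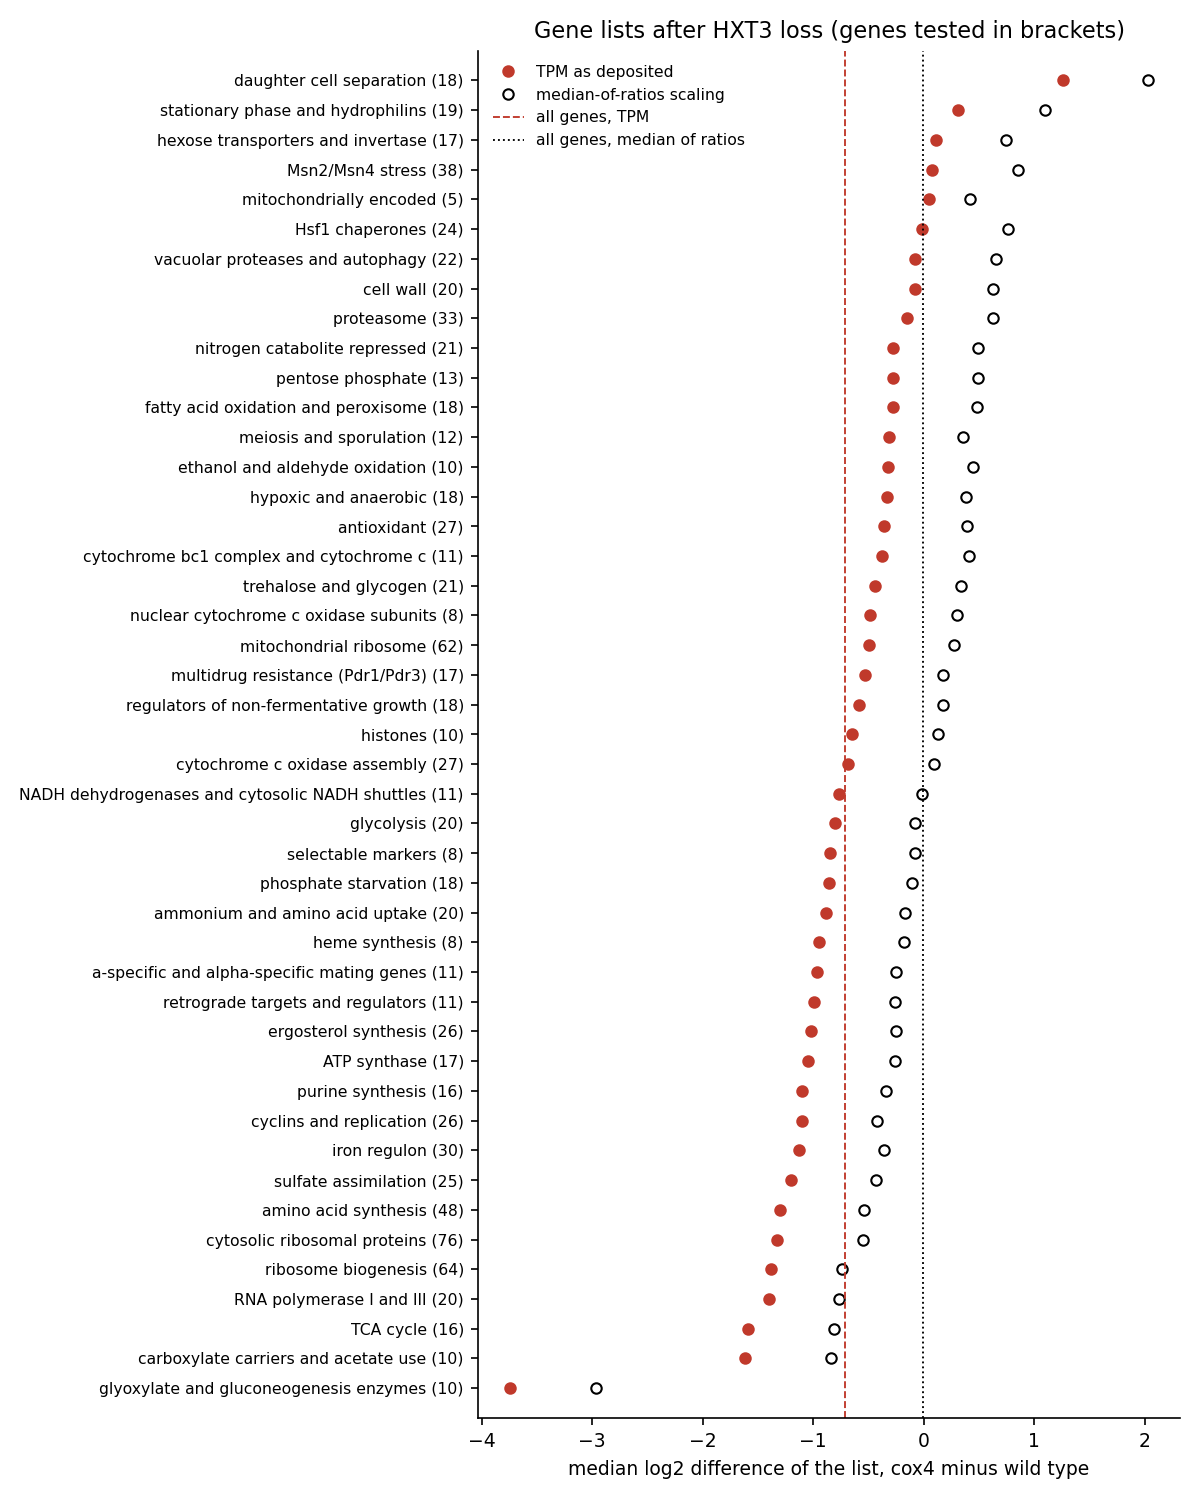
Median log2 difference, cox4Δ minus wild type, of each of the 45 gene lists, with the number of genes tested in brackets. Filled red points are TPM as deposited and open points are median-of-ratios scaling; dashed and dotted lines are the medians of all genes, -0.71 and -0.01. Daughter cell separation lies at the top with 1.27 and 2.03 and the glyoxylate and gluconeogenesis enzymes at the bottom with -3.74 and -2.96.

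For most named genes the strain difference changed across HXT3 loss, but some genes already differed in the preceding hours. Before HXT3 loss, with the cox4Δ strain at 9 to 12 h and wild type at 11 to 14 h, the median gene differed by -0.01. Of 5715 genes tested there, 108 were higher (1.89%) and 181 lower (3.17%). Of the 10 glyoxylate and gluconeogenesis enzymes, 4 were already lower and 2 higher (median -0.80). MLS1 then had 4.53 to 9.15 TPM in the cox4Δ strain and 23.1 to 91.9 TPM in wild type. In a fit of all 16 libraries the strain difference changed across HXT3 loss upward in 214 genes (3.75% of 5709 tested) and downward in 1931 (33.8%), and in 646 and 688 after median-of-ratios scaling. Of the 30 named genes 27 had such a change. These genes were chosen by their difference after the loss, which is part of the change, so the count is a description and not separate evidence. ICL1 had 22.1, 10.5, 23.7 and 20.0 TPM before the loss in the cox4Δ strain and 25.3, 34.1, 28.7 and 51.1 TPM in wild type, so the strains were close together until it rose in wild type (change in the difference -5.31, adjusted p = 6.1e-07). SUC2 had 43.7, 32.2, 73.6 and 158 TPM before the loss in the cox4Δ strain and 57.9, 63.4, 76.6 and 269 TPM in wild type (change 4.85, adjusted p = 8.7e-05). HXT13 did not exceed 1.5 TPM before the loss in the cox4Δ strain or 2.45 TPM in wild type, with a change of 6.23 (adjusted p = 2.3e-05). SUC2 was already rising in the last hours before the loss, to 557 TPM at 13 h in the cox4Δ strain and 388 TPM at 15 h in wild type, where it then fell back.

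Several stress genes crossed over. SPG1 had 16.0, 19.4, 40.2 and 37.0 TPM before the loss in the cox4Δ strain and 121, 139, 179 and 249.9 TPM in wild type (-2.62, adjusted p = 0.0024), the reverse of its order afterwards. SSA3, an inducible cytosolic Hsp70, had 10.3, 12.2, 35.3 and 35.4 TPM before the loss in the cox4Δ strain and 137, 181, 206 and 478 TPM in wild type. After the loss it had 471, 789, 622 and 518 TPM in the cox4Δ strain and 426, 359, 385 and 267 TPM in wild type, and the change in the difference was 4.14 (SE 0.56, adjusted p = 2.2e-05). Of the Msn2 and Msn4 targets none was higher and 13 were lower in the cox4Δ strain before the loss (median -0.94), and the difference changed upward in 15 and downward in none. Of the stationary phase list none was higher and 7 were lower before the loss, and the difference changed upward in 12 and downward in 2 (median 1.61). Ribosomal protein genes took the opposite course: 3 were higher and none lower before the loss (median 0.65), and the difference changed downward in 75 of 76 (median -1.98). Of the 3 named genes without a change, AGP1 was lower in the cox4Δ strain already before the loss, by -3.16 (adjusted p = 2.5e-06), SUN4 was already higher by 1.20, and ENA2 had 1.60, 2.92, 0.1 and 0.1 TPM before the loss in the cox4Δ strain and 17.4, 17.6, 22.8 and 18.8 TPM in wild type.

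**Figure D4:**
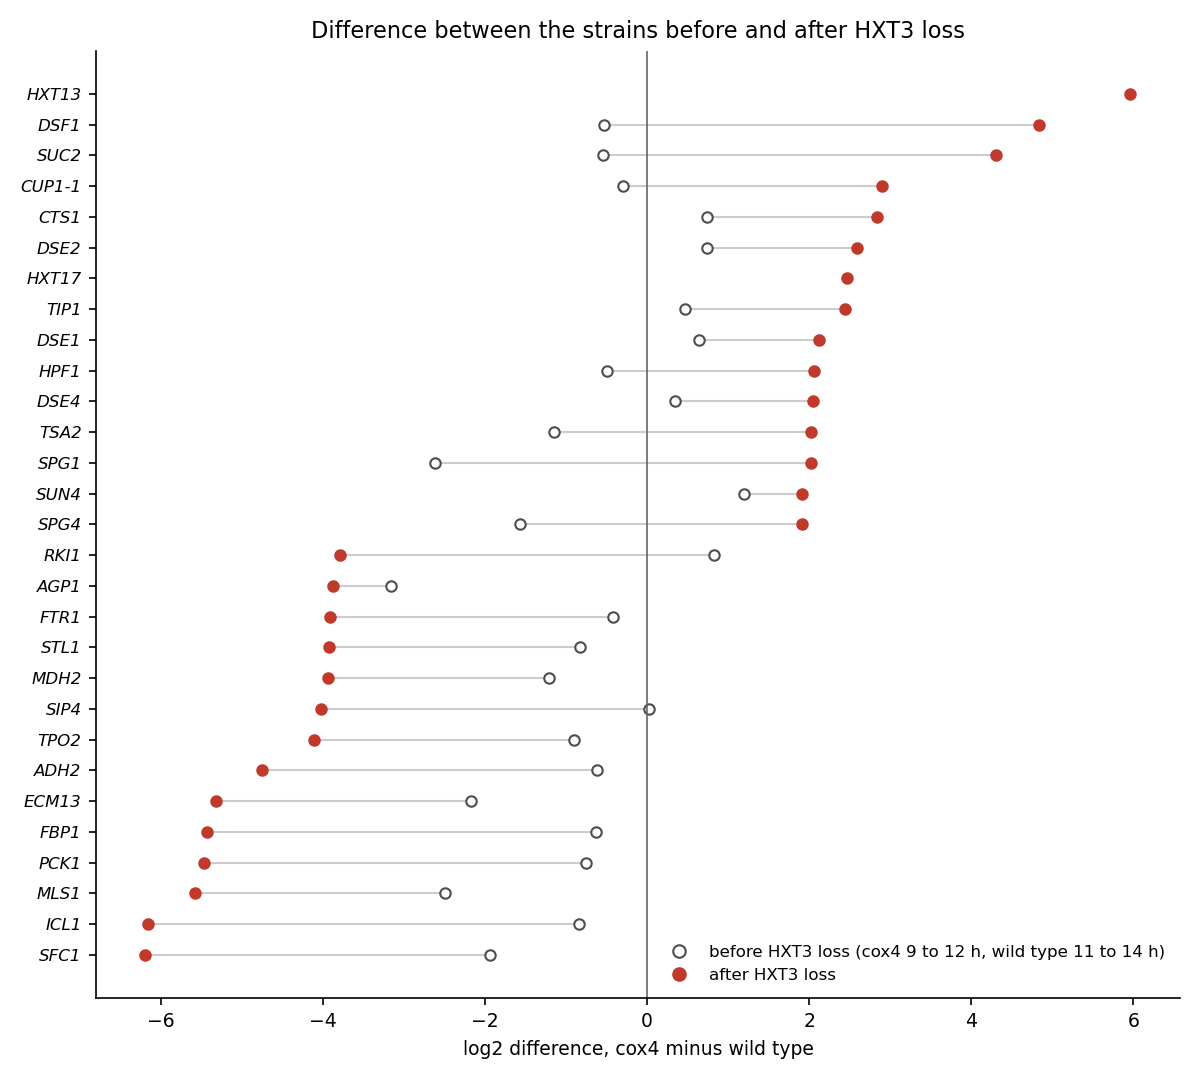
Log2 difference, cox4Δ minus wild type, for 29 of the 30 named genes before HXT3 loss (open points) and after it (red points). ENA2 is left out because it stood at the floor, and HXT13 and HXT17 have no open point because they were too low to test before the loss. AGP1 and SUN4 have the shortest lines; SPG1, at -2.62 before the loss and 2.02 after it, is one of the genes that cross 0.

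The ndh strain, whose electron transport is blocked at the entry of NADH rather than at the terminal oxidase, differed from the cox4Δ strain in few called genes after its own HXT3 loss. Of 5600 genes tested, 9 were higher (0.161%) and 2 lower (0.0357%) in the cox4Δ strain than in the ndh strain, and 477 had an unadjusted p under 0.05. Spearman's rho between the libraries of these strains lay between 0.939 and 0.976. The 2 lower genes were COX4, the deleted gene, and ADY2, with 14.7, 15.1, 18.5 and 19.6 TPM in the cox4Δ strain and 48.0, 37.3, 35.5 and 36.8 TPM in the ndh strain (-1.17, SE 0.18, adjusted p = 0.016). The 9 higher genes were the deleted NDE1, NDE2 and NDI1, the lactate dehydrogenase gene DLD1, and the 5 genes of both subtelomeric loci. HXT13 had 523, 93.6, 71.3 and 53.6 TPM in the cox4Δ strain and 5.76, 1.53, 1.24 and 0.4 TPM in the ndh strain (5.45, SE 0.65, adjusted p = 0.0026). DSF1 had 2021, 375, 380.1 and 353 TPM in the cox4Δ strain and 75.1, 36.1, 38.5 and 33.4 TPM in the ndh strain (3.68, SE 0.50, adjusted p = 0.0082). YNR073C and YNR071C were higher by 3.52 and 2.87. DLD1 had 225, 279, 247 and 214 TPM in the cox4Δ strain and 129.8, 100.2, 104 and 85.7 TPM in the ndh strain (1.20, SE 0.17, adjusted p = 0.01). SUC2 was high in both mutants, with 3041, 1403, 1472 and 1426 TPM in the cox4Δ strain and 1412, 1212, 1024 and 865 TPM in the ndh strain (0.64, adjusted p = 0.51). CUP1-1 had 36174, 116621, 115589 and 122484 TPM in the cox4Δ strain and 43907, 71134, 70106 and 101876 TPM in the ndh strain (0.36, adjusted p = 0.87). A p above the threshold does not show that the strains were alike in these genes. This comparison depended on single libraries: the 2 lower genes became 5 without the cox4Δ library at 14 h, 6 without the ndh library at 13 h, and 1 without cox4Δ at 15 h or 16 h or without ndh at 14, 15 or 16 h. DSF1 fell short of the threshold without the ndh library at 14 h (adjusted p = 0.057) or at 15 h (adjusted p = 0.055).

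**Figure D5:**
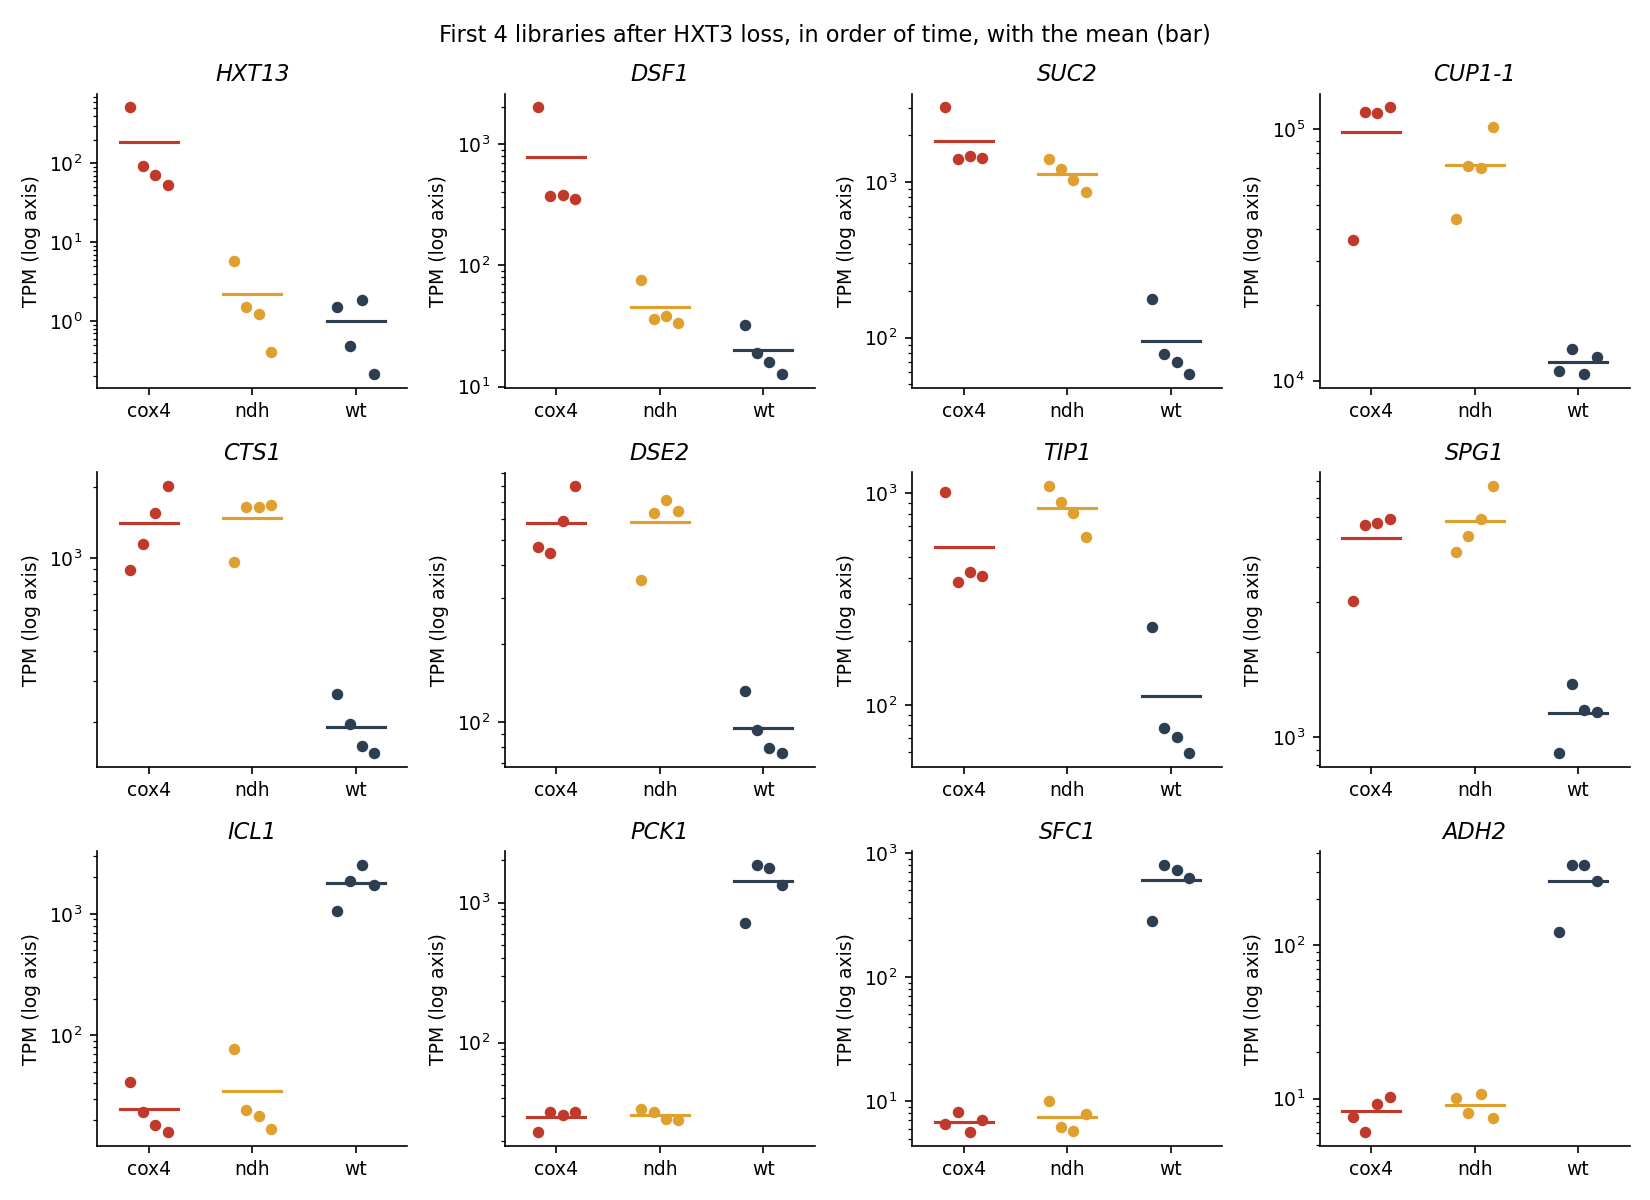
TPM on log axes of 12 genes in the first 4 libraries after HXT3 loss of the cox4Δ strain (cox4, red), the nde1Δ nde2Δ ndi1Δ strain (ndh, orange) and wild type (wt, dark blue), in order of time, with the mean as a bar. HXT13 and DSF1 are far higher in the cox4Δ strain than in ndh, while for the other 10 genes all mutant libraries lie on the same side of every wild-type library.

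Genes that mark other states of the cell were checked for a mixture of types. Of 11 genes specific to a or alpha mating type, 5 were lower and none higher on the TPM scale (median -0.96) and none was called after median-of-ratios scaling. The a-specific receptor gene STE2 had 34.7 to 69.8 TPM in the cox4Δ strain and 83.2 to 127 TPM in wild type. The alpha-specific receptor gene STE3 had 5.38 to 11.4 TPM in the cox4Δ strain and 14.6 to 17.9 TPM in wild type. The summed level of the list was 1900 to 3696 TPM in the cox4Δ strain and 2962 to 3955 TPM in wild type. Of 12 genes of meiosis and sporulation 3 were lower and none higher, where 32.4% of all genes tested were lower. After median-of-ratios scaling 1 was higher and none lower. The summed level of this list was 84.0 to 105 TPM in the cox4Δ strain and 96.5 to 110.2 TPM in wild type. SPS4, a further gene of that list, was too low to test, with means of 0.77 TPM in the cox4Δ strain and 0.32 TPM in wild type. The part of mating type or of sporulating cells in the differences was not tested.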

How the data were processed

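RNA-seq was performed on total RNA that was depleted of ribosomal RNA and made into stranded libraries, per the labels' protocols. The authors deposited TPM values for 5803 genes in 72 libraries, made, per the submitters' processing notes, with Salmon 0.9.1 after bcl2fastq 2.20.0.422, on the build sacCer3. How Salmon was set for strand and on which transcripts it ran is not given in the sources used here, so reads of antisense partners and near-identical copies may be shared out in ways that TPM does not show. No value lies below 0.1 TPM.

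Values of log2(TPM + 1) were tested with limma 3.58.1 (R 4.3.3; variances moderated with a trend and robustly), which understates the change of low genes. Genes with a mean of at least 1 TPM over the libraries in a fit were tested, which left out 117 in the main comparison. A gene was called at a Benjamini-Hochberg adjusted p under 0.05 over all genes tested and a change of at least 2-fold. All tests were 2-sided. The fits had 6 residual degrees of freedom for a pair of windows and 12 for the change across HXT3 loss. Fits of the strains before HXT3 loss were added to the planned comparisons. For median-of-ratios scaling, each library was divided by the median ratio of its genes to their geometric mean, over genes above 0.1 TPM throughout. Procedures were tested on simulated data.

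The members, the 45 gene lists and the tests were chosen with earlier results of these data known. Genes were named by rule: the 15 highest and 15 lowest called nuclear genes that have a symbol, HXT3 and COX4 left out, with non-overlapping windows and a mean of at least 10 TPM in the higher group, the 5 at each end of the other comparisons, all members of lists of up to 12 genes, and the 3 highest and 3 lowest of longer lists. CAT8, ADR1, HAP4, CIT1, MDH1, KGD2, CRS5, HXT2, HXT6, HXT7, EGT2, SPI1, HSP12 and FET3, where the rule did not give them, the subtelomeric neighbours and the motifs were chosen after their values were seen. Other scalings, pseudocounts, filters, windows, moderation, a block and each library left out were the alternatives.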

Additional observations from a re-analysis of the deposited data

Results flagged for a closer look

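In 10 of 60 groups of 4 libraries, 1 library stood apart from the others by Dixon's criterion, where chance flags about 1 group in 20. The cox4Δ library at 14 h was that library in 9 of them. DSF1 had 2021 TPM there and 353 to 380 TPM in the other 3 cox4Δ libraries, SUC2 had 3041 TPM against 1403 to 1472 TPM, HXT17 had 29.7 TPM against 7.27 to 9.02 TPM, and TIP1 had 1020.4 TPM against 383 to 424 TPM. STL1 had 12.0 TPM at 14 h and 5.22 to 5.53 TPM later. CUP1-1 was lower there, with 36174 TPM against 115589 to 122484 TPM, as were SPG1 with 3020.3 TPM against 5602 to 5872 TPM, SPG4 with 3065 TPM against 6054 to 6481 TPM, and PCK1 with 22.9 TPM against 30.6 to 32.1 TPM. For AGP1 the wild-type library at 16 h stood apart, with 93.0 TPM against 162 to 171 TPM. The 14 h library is also the first of the cox4Δ strain whose code begins with F, so time and code letter cannot be told apart there.

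The strain difference changed across HXT3 loss in 27 of the 30 named genes, by limma's test of the change at an adjusted p under 0.05. The genes were chosen by their difference after the loss, and the same libraries enter this test, so the count is a description. The change was upward by 6.23 on the log2 scale for HXT13, 5.36 for DSF1, 4.85 for SUC2, 4.64 for SPG1, 3.47 for SPG4, 3.20 for CUP1-1, 3.18 for TSA2, 2.92 for HXT17, 2.56 for HPF1, 2.09 for CTS1, 1.97 for TIP1, 1.84 for DSE2, 1.70 for DSE4 and 1.47 for DSE1. It was -5.31 for ICL1, -4.80 for FBP1, -4.72 for PCK1, -4.61 for RKI1, -4.25 for SFC1, -4.14 for ADH2, -4.06 for SIP4, -3.48 for FTR1, -3.20 for TPO2, -3.15 for ECM13, -3.10 for STL1, -3.09 for MLS1 and -2.72 for MDH2.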

How the results depend on the processing

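All 30 named genes kept their direction and their call in cox4Δ against wild type in every alternative fit that tested them, in 658 values over 22 settings. They were chosen from these same data for large differences without overlap, so this is weak support. The counts moved more. With median-of-ratios scaling 409 genes were higher and 310 lower than in wild type, and the change across HXT3 loss was upward in 646 and downward in 688. A pseudocount of 5 TPM left 1025 lower and 1225 changed downward. Without a fold threshold 237 were higher and 3736 lower. Leaving out each library in turn gave 75 to 91 higher and 1695 to 2164 lower than in wild type, 170 to 255 and 1806 to 2178 for the change across HXT3 loss, and 6 to 12 higher and 1 to 6 lower than in ndh. ADY2 missed the threshold against ndh in 5 of those fits, with adjusted p from 0.054 to 0.095. Without the first library of each window, an alternative added after seeing the data, 93 were higher and 2300 lower. As a replicate block, the order within the window gave 84 higher and 1841 lower, 211 and 1922 for the change, and 13 and 3 against ndh; deviations of same-order libraries correlated by 0.35, 0.24, -0.08 and 0.21, and in orders 1, 2 and 4 each cox4Δ library correlated best with its own order, a hint from the data and not from the design. Depth is unknown and limits all low values.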
